A study of Mus musculus with 9 samples.

Results

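The genes described here encode the enzymes and carriers of fatty acid oxidation. They were the 32 named acyl-CoA synthetases, carnitine shuttle proteins, malonyl-CoA enzymes, mitochondrial and peroxisomal beta-oxidation enzymes and electron-transfer proteins, and all 32 had a row among the 32594 genes of the deposited count table. RNA of hindlimb skeletal muscle was counted per gene in 4 libraries of mice labelled SMN delta 7, called SMA here, and 5 libraries of wild type (WT) mice, all on the FVB/N background. SMN delta 7 mice are a model of spinal muscular atrophy in which mouse Smn1 is disrupted and human SMN transgenes supply low SMN protein, so that spinal motor neurons are lost and muscle wastes. The labels give no age, litter or transgene status for either group, and no pooling. They do not say that each library came from its own animal, so the p-values measure the spread between these libraries, which may be technical in part.

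Muscle burns fatty acids in mitochondria. A fatty acid is first joined to coenzyme A, then carried across the inner mitochondrial membrane as a carnitine ester, and then shortened by repeated rounds of dehydrogenation, hydration, dehydrogenation and cleavage. Electrons from the first step of each round reach the respiratory chain through the electron-transfer flavoprotein and its ubiquinone oxidoreductase. Malonyl-CoA, made by acetyl-CoA carboxylase and removed by malonyl-CoA decarboxylase, inhibits the entry step, and peroxisomes shorten chains that mitochondria handle poorly. Slow and oxidative fibres depend on this pathway more than fast glycolytic fibres.

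Library totals lay between 24917665 and 35087722 counts. Smn1 checked the labels: it stood at 1.80, 2.24, 1.40 and 2.72 CPM in SMA libraries 1 to 4, against 13.1, 13.5, 13.8, 11.1 and 13.3 CPM in WT libraries 1 to 5, where CPM is the counts-per-million value of a library total corrected by edgeR's scaling factor. The human transgenes have no row of their own, and their level was not analysed here. On the second principal component SMA 3 stood apart, at -43.4 where the other SMA libraries lay between 14.6 and 15.4. Libraries with Y-linked expression made up 1 of 4 in SMA and 4 of 5 in WT. The skeletal muscle markers Acta1, Ckm, Myh4, Tnnt3, Mylpf, Atp2a1, Ttn and Des were abundant in every library, with summed levels of 81970 to 99900 CPM in SMA and 149400 to 213600 CPM in WT. In whole tissue, fewer cells of a type and less RNA per cell cannot be told apart.

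Most of the pathway was higher in SMA muscle. Of the 32 genes, 21 rose, 2 fell and 9 did not pass (edgeR's quasi-likelihood test, Benjamini-Hochberg adjustment over all 15873 genes tested, threshold 0.05). The background was broad: of all genes tested 54.9% passed, 27.7% rose and 27.2% fell. The median log2 fold change, SMA over WT, was 0.68 over the 32 genes and 0.00596 over all genes tested. All SMA libraries lay above all WT libraries for 20 of the 32 genes, against 22.6% of all genes tested, and below them for 2, against 21.7%. All 32 passed the filter on low counts, with 130 to 30765 counts per gene and library. Changes of at least 2-fold were found for 5 of the 32 genes, which were Acss1, Acacb, Cpt1b, Mlycd and Acsl1, where 14.5% of all genes tested passed with such a change. Under scaling to total counts alone, which moved the median of all genes to 0.24, 27 of the 32 rose and 1 fell, beside 6385 rises and 2164 falls among all genes, against 4393 and 4319 in the fit used here. With sex of the library as a term, 20 of the 32 rose and 2 fell, beside 3554 rises and 3329 falls among all genes.

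**Figure D1:**
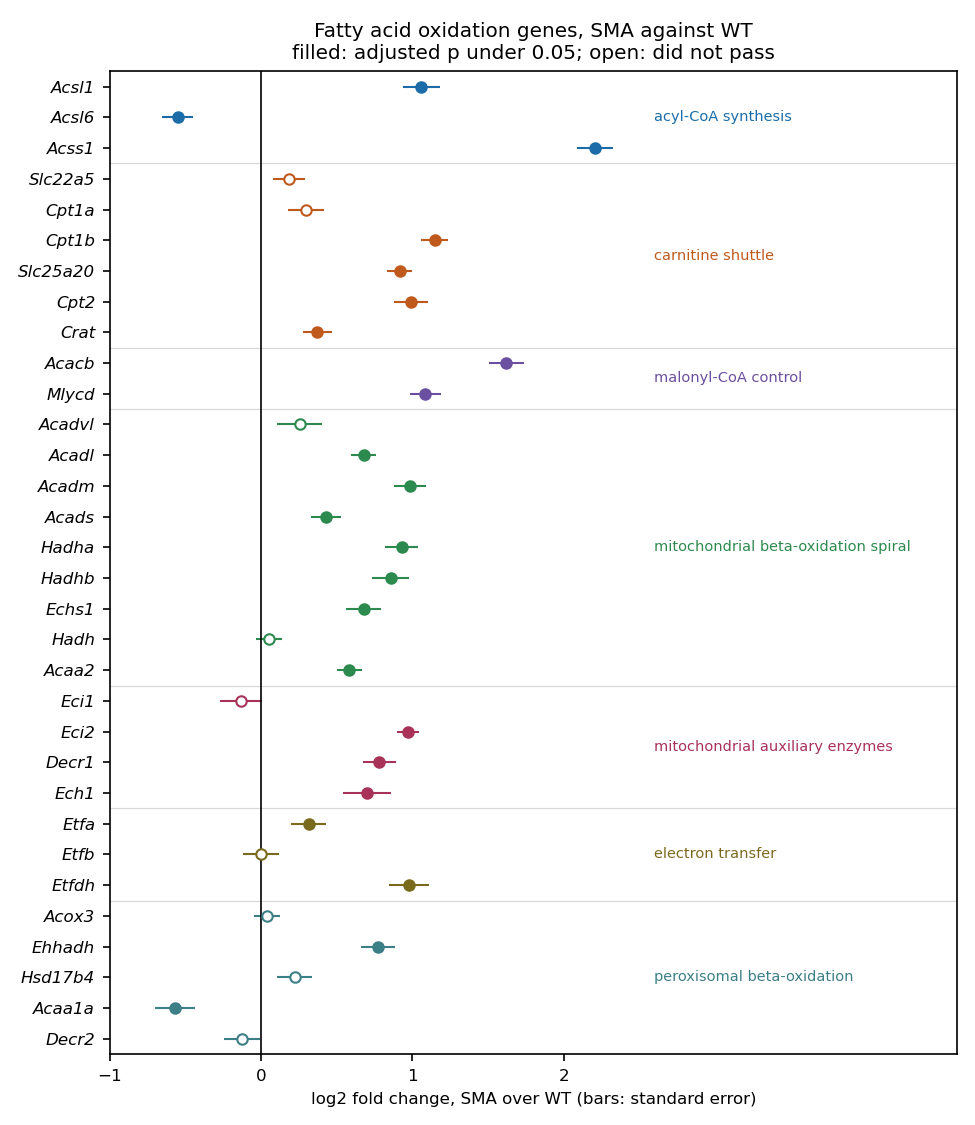
Log2 fold change, SMA over WT (horizontal axis), for each of the 32 genes (vertical axis), grouped and coloured by step, with standard errors as bars. Filled points passed at an adjusted p of 0.05 by edgeR and open points did not; 21 filled points lie right of 0 and 2, Acsl6 and Acaa1a, lie left of it.

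The acyl-CoA synthetases did not move together. Acsl1 joins long-chain fatty acids to coenzyme A and is the main such enzyme of muscle. It stood at 616, 635, 527 and 576 CPM in SMA libraries 1 to 4, against 312, 254, 305, 217 and 324 CPM in WT libraries 1 to 5. The groups were well apart, and Acsl1 rose by 1.06 ± 0.12 on the log2 scale (SE; adjusted p = 2.31e-05). Acss1, which activates acetate inside mitochondria, had the largest change of the 32 genes, with 188, 255, 232 and 192 CPM in SMA against 52.1, 44.2, 53.6, 45.7 and 39.1 CPM in WT. Its lowest SMA library stood far above its highest WT library, and its log2 fold change was 2.21 ± 0.12 (adjusted p = 1.17e-07), or 4.61-fold. Acsl6, a long-chain synthetase best known from brain, moved the other way. It stood at 19.0, 20.3, 17.0 and 19.3 CPM in SMA against 26.6, 24.2, 31.4, 24.6 and 31.6 CPM in WT, without overlap, and fell by 0.55 ± 0.10 (adjusted p = 6.55e-04).

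Acsl6, a gene that fell, has several annotated starts. The stretch before the first of them is shown because its letters match the core of sites of ERR nuclear receptors. Binding was not tested. The line gives the part of the 250 bases before that start that lies outside annotated exons, from RefSeq's GRCm38.p6 promoter table, at chr11:54303574-54303797 on the plus strand. Capitals mark the letters AAGGTCA, the core of ERR sites, and GGGCGG, the core of Sp-family sites, on either strand.
Acsl6: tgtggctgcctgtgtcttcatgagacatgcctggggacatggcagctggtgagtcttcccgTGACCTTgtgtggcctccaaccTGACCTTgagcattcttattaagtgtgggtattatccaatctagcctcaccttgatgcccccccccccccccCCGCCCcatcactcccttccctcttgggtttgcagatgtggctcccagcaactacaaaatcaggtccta
A window of 250 bases before to 50 after a start was listed for 27 of the 32 genes. AAGGTCA occurred in the windows of 3 of these genes (11.1%), Acacb, Acadm and Acsl6, and in those of 5.38% of all 27025 genes listed. GGGCGG occurred for 22 of the 27 (81.5%) and for 38.2% of all genes listed, which were not limited to the genes tested here. Of the 17 genes that rose and had a window, 13 had GGGCGG. The letters AGGTCA repeated in the same direction with 1 base between, the consensus of PPAR sites, were found for 0 of the 27 and for 13 of all genes listed. The motifs do not overlap one another in the stretch shown, and a match of letters is a description only.

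In the carnitine shuttle the muscle form of the entry enzyme, the translocase and the inner enzyme all rose. Cpt1b makes the acylcarnitine on the outer mitochondrial membrane. Its levels were 702, 746, 676 and 632 CPM in SMA, against 323, 292, 311, 290 and 341 CPM in WT. The SMA libraries were about alike and all lay above the WT libraries, with a log2 fold change of 1.15 ± 0.088 (adjusted p = 1.03e-06). Slc25a20, which exchanges acylcarnitine for carnitine across the inner membrane, had 131, 125, 128 and 112 CPM in SMA against 63.2, 63.4, 64.6, 61.6 and 76.3 CPM in WT, and rose by 0.92 ± 0.083 (adjusted p = 3.62e-06). Cpt2, which returns the acyl group to coenzyme A inside the mitochondrion, had 144, 148, 167 and 121 CPM in SMA against 73.6, 65.9, 67.3, 66.8 and 90.2 CPM in WT. Cpt2 rose by 0.99 ± 0.12 (adjusted p = 2.34e-05), again without overlap.

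Other shuttle genes changed less. Crat, which moves acetyl and short acyl groups onto carnitine, rose by 0.37 ± 0.096 (adjusted p = 0.00612), with 641 to 731 CPM in SMA and 478 to 614 CPM in WT. Cpt1a, the liver form of the entry enzyme, had 35.9, 37.4, 33.4 and 37.1 CPM in SMA against 27.5, 34.1, 29.2, 33.8 and 21.5 CPM in WT. The groups overlapped, and Cpt1a did not pass, at 0.30 ± 0.12 with an adjusted p of 0.0512. It passed without WT 2 (0.0277), without WT 4 (0.0308) and without SMA 3 (0.0427), and with all libraries under median-of-ratios scaling (0.0498), limma-voom (0.0441) and total-count scaling (0.0146). The number of shuttle genes that rose was 4 here and 4 to 6 over the alternatives. Slc22a5, the carnitine transporter of the cell membrane, had a log2 fold change of 0.18 ± 0.11 (adjusted p = 0.162), with 22.7 to 30.9 CPM in SMA and 19.6 to 24.6 CPM in WT. Per kilobase of exon, Cpt1b averaged 204 CPM in SMA and 92.3 CPM in WT, and Cpt1a 4.71 CPM in SMA and 3.83 CPM in WT. Exons of Cpt1b share 2744 bases with the annotated read-through gene Gm44502 on the same strand, which has no row in the count table.

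Both enzymes that set the malonyl-CoA level rose. Acacb, the mitochondrial acetyl-CoA carboxylase that makes malonyl-CoA near the entry enzyme, had 538, 567, 438 and 502 CPM in SMA, against 171, 149, 188, 140 and 182 CPM in WT. It rose by 1.62 ± 0.11 on the log2 scale (adjusted p = 5.32e-07), the second-largest change of the 32 genes, and its groups did not overlap. Mlycd, which breaks malonyl-CoA down, had 237, 229, 257 and 194 CPM in SMA against 108, 104, 92.8, 119 and 117 CPM in WT, and rose by 1.08 ± 0.10 (adjusted p = 4.65e-06). SMA 3 was the lowest SMA library for Acacb and the highest for Mlycd. Acaca, the cytosolic carboxylase that supplies fatty acid synthesis, also rose, by 0.76 ± 0.11 (adjusted p = 1.09e-04), with 18.1 to 25.7 CPM in SMA and 11.8 to 14.3 CPM in WT.

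**Figure D2:**
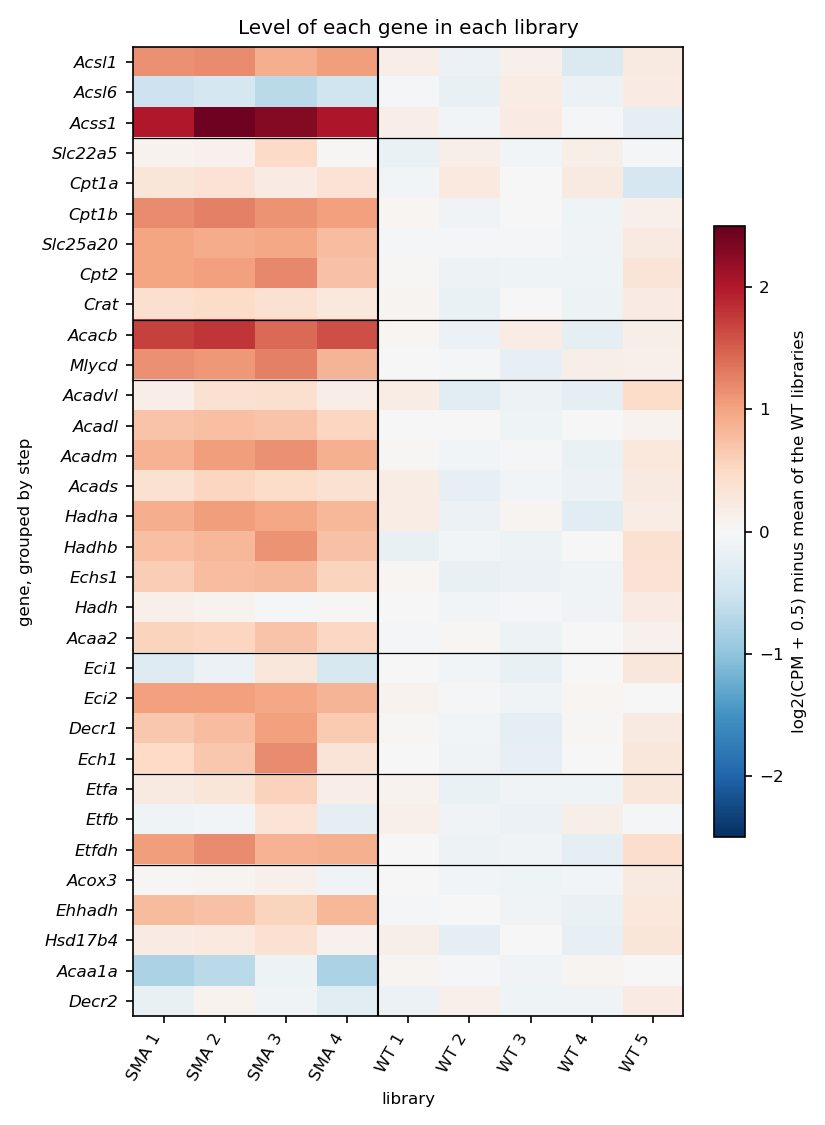
Difference of log2(CPM + 0.5) from the mean of the WT libraries (colour, red higher and blue lower) for each gene (rows, grouped by step) in each library (columns, SMA left of the line and WT right of it). Red runs through all 4 SMA columns for genes such as Acss1, Acacb and Cpt1b, while Acsl6 and Acaa1a are blue, and SMA 3 differs from its group in Acaa1a, Eci1, Ech1 and Etfb.

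Within the mitochondrial spiral, 7 of 9 genes rose and 0 fell, and the 4 acyl-CoA dehydrogenases, which open each round for chains of different length, changed by unequal amounts. Acadm, which acts on medium chains, had 566, 641, 681 and 571 CPM in SMA against 314, 293, 300, 276 and 371 CPM in WT. It rose by 0.99 ± 0.10 on the log2 scale (adjusted p = 1.16e-05). Acadl, the long-chain enzyme, had 650, 667, 649 and 578 CPM in SMA against 396, 398, 371, 399 and 424 CPM in WT and rose by 0.68 ± 0.082 (adjusted p = 3.27e-05). Acads, the short-chain enzyme, rose by 0.43 ± 0.10 (adjusted p = 0.00348), and its SMA range of 174 to 192 CPM lay above its WT range of 115 to 156 CPM. Acadvl, the very-long-chain enzyme of the inner membrane, had 290, 334, 341 and 288 CPM in SMA against 293, 214, 236, 216 and 354 CPM in WT. Its highest library was WT 5, and its log2 fold change of 0.26 ± 0.15 did not pass (adjusted p = 0.162), although without WT 5 it was 0.39 (adjusted p = 0.0141). Exons of Acadvl share 1151 bases with Dvl2 on the opposite strand, and whether strand was used in the counting is not stated in the labels.

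The stretch before Acadm is shown for the same letters, from RefSeq's GRCm38.p6 table, at chr3:153944644-153944893 on the minus strand, read 5′ to 3′ towards the gene.
Acadm: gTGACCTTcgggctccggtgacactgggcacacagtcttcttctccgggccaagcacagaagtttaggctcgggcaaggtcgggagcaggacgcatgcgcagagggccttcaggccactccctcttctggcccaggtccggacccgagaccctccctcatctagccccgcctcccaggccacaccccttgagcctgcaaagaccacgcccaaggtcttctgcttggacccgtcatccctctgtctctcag
Capitals mark 1 match of AAGGTCA, on the other strand, at the far end of the window from the start of Acadm, and there is no GGGCGG in this stretch.

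The trifunctional protein carries out the later steps of a round on long chains, with its alpha subunit from Hadha and its beta subunit from Hadhb. Hadha had 747, 819, 774 and 702 CPM in SMA, against 451, 356, 415, 327 and 449 CPM in WT, and rose by 0.93 ± 0.11 (adjusted p = 3.07e-05). Hadhb had 203, 214, 263 and 202 CPM in SMA, against 106, 114, 111, 120 and 157 CPM in WT, and rose by 0.86 ± 0.12 (adjusted p = 1.26e-04). Neither gene overlapped between the groups, and the change of both subunits was close in size. The genes lie head to head on chromosome 5 in GENCODE M21, Hadha on the minus strand from 30118304 to 30155162 and Hadhb on the plus strand from 30155248 to 30184593. The 85 bases between their starts are shown because both genes begin there and both rose, at chr5:30155163-30155247 on the plus strand of GRCm38.p6, from RefSeq's table.
Hadha-Hadhb: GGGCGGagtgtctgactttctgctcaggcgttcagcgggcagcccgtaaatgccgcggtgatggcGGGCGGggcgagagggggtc
Capitals mark the 2 matches of GGGCGG. There is none of the letters AAGGTCA, and the GC content of the stretch is 69.4%.

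Shorter-chain enzymes of the spiral were divided. Echs1, the short-chain enoyl-CoA hydratase, had 186, 209, 212 and 179 CPM in SMA against 126.5, 108, 109, 115 and 156 CPM in WT, and rose by 0.68 ± 0.12 (adjusted p = 3.87e-04). Acaa2, the thiolase that ends a round (chromosome 18, 74779197 to 74806208), had 439, 438, 492 and 433 CPM in SMA against 296, 305, 274, 304 and 324 CPM in WT, and rose by 0.58 ± 0.082 (adjusted p = 1.04e-04). Hadh, the dehydrogenase that acts between these enzymes, stood at 326, 318, 290 and 306 CPM in SMA against 300, 282, 288, 282 and 341 CPM in WT. Its groups overlapped throughout, and its log2 fold change was 0.054 ± 0.085 (adjusted p = 0.615), or -0.00113 under upper-quartile scaling. Under total-count scaling, where the median of all genes was 0.24, it was 0.29 and passed (adjusted p = 0.00306).

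Auxiliary enzymes let unsaturated chains enter the spiral, by moving or reducing double bonds. Eci2, an enoyl-CoA isomerase of mitochondria and peroxisomes, had 185, 184, 177 and 164 CPM in SMA against 95.6, 88.8, 84.6, 93.7 and 89.6 CPM in WT, and rose by 0.97 ± 0.072 (adjusted p = 8.39e-07). Decr1, the mitochondrial dienoyl-CoA reductase, had 248, 268, 317 and 248 CPM in SMA against 160, 148, 133, 160 and 183 CPM in WT, and rose by 0.78 ± 0.11 (adjusted p = 8.67e-05). Ech1, a dienoyl-CoA isomerase, rose by 0.70 ± 0.16 (adjusted p = 0.00282), with 217, 245, 346 and 191 CPM in SMA against 152, 144, 133, 154 and 187 CPM in WT. For Ech1 the margin was small, because SMA 4 stood just above WT 5, and SMA 3 was far above the other SMA libraries. Eci1, the other mitochondrial isomerase, had 102, 114, 155 and 95.6 CPM in SMA against 126.4, 121, 112, 126.2 and 155 CPM in WT. SMA 3 alone was as high as the highest WT library, and the log2 fold change was -0.13 ± 0.14 (adjusted p = 0.442). Without SMA 3, Eci1 fell by 0.30 (adjusted p = 0.0338), and under total-count scaling its value was 0.12.

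In electron transfer, the membrane enzyme had a larger log2 change than the soluble flavoprotein. Etfdh, the ubiquinone oxidoreductase, had 328, 359, 289 and 296 CPM in SMA against 159, 146, 150, 136 and 216 CPM in WT, and rose by 0.98 ± 0.13 (adjusted p = 7.12e-05). Etfa, the alpha subunit of the flavoprotein, had 227, 240, 293 and 219 CPM in SMA against 208, 173, 183, 181 and 239 CPM in WT. The groups overlapped through WT 5, and Etfa rose by 0.31 ± 0.12 with an adjusted p of 0.0383. That call rested on single libraries: the adjusted p was 0.0515 without WT 1, 0.0903 without WT 2, 0.0814 without WT 3, 0.0802 without WT 4, 0.0677 without SMA 2 and 0.112 without SMA 3, so that 1 gene of this step rose in each of those fits in place of 2. Etfb, the beta subunit, had 298, 307, 406 and 277 CPM in SMA against 350, 302, 290, 356 and 316 CPM in WT. SMA 3 was its highest library and SMA 4 its lowest, and its log2 fold change was -0.003 ± 0.12 (adjusted p = 0.985), with a sign that differed between settings. Per kilobase of exon, Etfb was the highest of the 32 genes in WT, at 277 CPM, while in SMA, also at 277 CPM, it stood below Acadl at 317 CPM and Acaa2 at 297 CPM.

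The peroxisomal genes were divided, where 1 of 5 rose, 1 fell and 3 failed the test. Ehhadh, the inducible bifunctional enzyme, was scarce, at 10.5, 9.93, 8.81 and 10.8 CPM in SMA against 5.72, 5.81, 5.45, 5.14 and 7.12 CPM in WT. It rose by 0.77 ± 0.11 (adjusted p = 1.29e-04), without overlap. Acaa1a, a peroxisomal thiolase, stood at 40.0, 43.9, 64.4 and 40.3 CPM in SMA against 73.3, 68.7, 65.4, 73.3 and 69.4 CPM in WT. It fell by 0.57 ± 0.13 (adjusted p = 0.00289), but SMA 3 was only just below the lowest WT library, and under total-count scaling the value was -0.33 with an adjusted p of 0.0947. Acaa1b is a near-identical copy whose reads may have been divided with those of Acaa1a, and the sum of both was 50.3 ± 12.7 CPM in SMA and 74.9 ± 3.40 CPM in WT (SD, n = 4 and 5). Exons of Acaa1a also share 290 bases with Myd88 on the opposite strand.

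Among the other peroxisomal genes, Hsd17b4, the constitutive bifunctional enzyme, had 47.3, 48.7, 53.8 and 44.3 CPM in SMA against 45.6, 34.7, 40.8, 35.8 and 51.2 CPM in WT. Its log2 fold change was 0.22 ± 0.11 (adjusted p = 0.121), and without WT 5 it was 0.31 (adjusted p = 0.0213), so that 2 of 5 genes of this step rose in that fit. Acox3, an acyl-CoA oxidase, had 22.2 to 25.9 CPM in SMA and 21.9 to 27.7 CPM in WT, with a log2 fold change of 0.038 ± 0.085 that was -0.016 under upper-quartile scaling. Decr2, the peroxisomal dienoyl-CoA reductase, had 5.62 to 7.32 CPM in SMA and 6.20 to 8.01 CPM in WT, with a log2 fold change of -0.12 ± 0.12 that was 0.11 under total-count scaling. Neither gene passed in any scaling except Acox3 under total counts, where the value was 0.28 (adjusted p = 0.0174).

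The 32 genes were also summed as a share of all counts, which amounts to total-count scaling. Together they took 0.915%, 0.985%, 1.07% and 0.882% in SMA libraries 1 to 4, against 0.509%, 0.514%, 0.473%, 0.487% and 0.508% in WT libraries 1 to 5. Every SMA library lay above every WT library, and the means were 0.964% ± 0.0847 in SMA and 0.498% ± 0.0173 in WT (SD, n = 4 and 5). The ratio of these means was 1.94, and the ratio of the summed CPM was 1.64. The ratio of shares was greatest for malonyl-CoA control, at 3.18, then acyl-CoA synthesis at 2.73 and the carnitine shuttle at 1.95. It was 1.86 for the spiral, 1.82 for the auxiliary enzymes and 1.54 for electron transfer. In summed CPM the ratios of these steps, in the same order, were 2.70, 2.31, 1.65, 1.57, 1.54 and 1.3. Peroxisomal genes took 0.0150% ± 0.0024 in SMA and 0.0137% ± 0.00059 in WT, a ratio of 1.09 with overlapping groups. Their ratio in summed CPM was 0.92, so its direction depended on the scaling. These sums rest on chosen genes and carry no test.

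**Figure D3:**
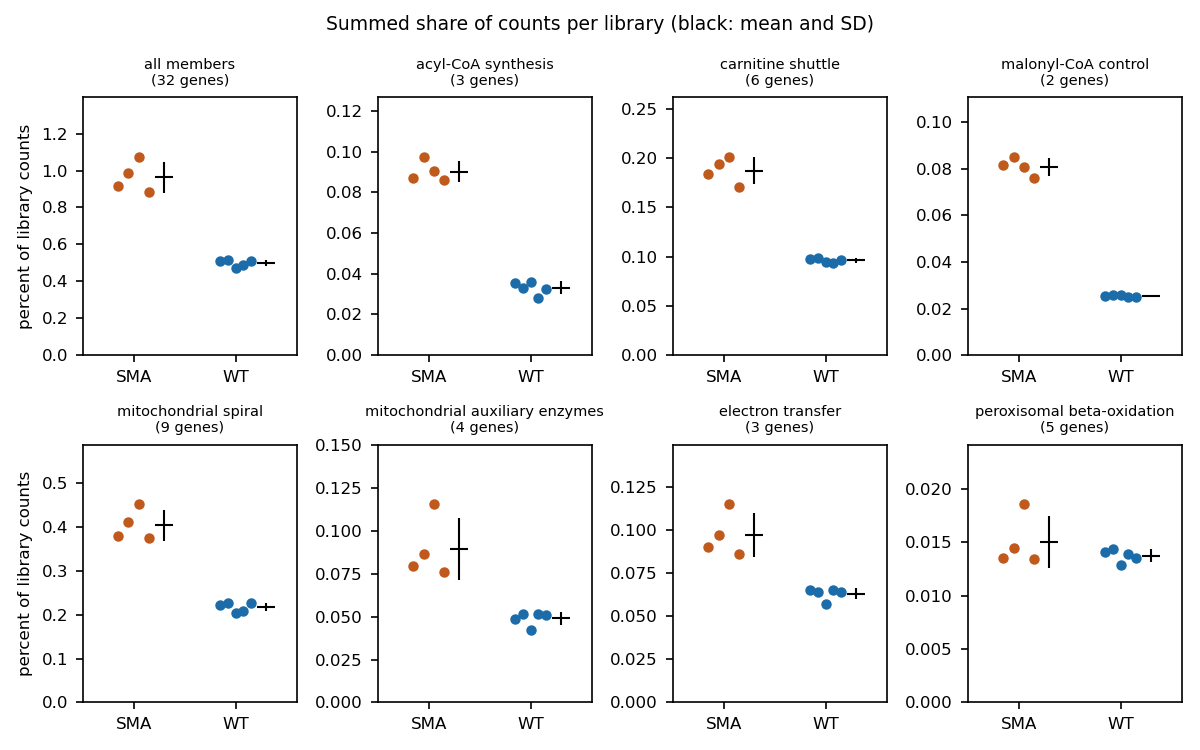
Percent of each library's counts taken by all 32 genes and by each step (vertical axes from 0, each with its own range), for the SMA libraries (left in each panel) and the WT libraries (right), with mean and SD in black. The groups separate in every panel except the peroxisomal one, where SMA 3 stands alone above the rest.

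Ratios of counts between pairs of related genes (isoforms, partner subunits or enzymes of like action) do not depend on how libraries are scaled, so 10 pairs were compared between SMA and WT. The test was an exact permutation test, two-sided, that used every way to divide the 9 libraries, with p adjusted over the 10 pairs. The pairs use the counts already fitted above, so their p-values are not independent of those results. The main muscle forms stood further above their counterparts in SMA. Acsl1 counts averaged 31.1 times those of Acsl6 in SMA and 10.2 times in WT, and the log2 ratio of Acsl6 to Acsl1 differed by -1.62 (exact p = 0.00794, the smallest the design allows, adjusted p = 0.0265). Cpt1b counts averaged 19.2 times those of Cpt1a in SMA and 11.1 times in WT, with a log2 difference of -0.83 for Cpt1a over Cpt1b (exact p = 0.0159, adjusted p = 0.0397). Decr2 over Decr1, the peroxisomal over the mitochondrial reductase, differed by -0.91 (exact p = 0.00794, adjusted p = 0.0265). In none of these pairs did the SMA and WT libraries overlap.

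For the isomerases the order of the pair by raw counts, which are not corrected for exon length, differed between the groups. The log2 ratio of Eci2 to Eci1 was 0.86, 0.69, 0.19 and 0.78 in SMA, so that Eci2 had the more counts in every SMA library, and -0.40, -0.44, -0.40, -0.43 and -0.79 in WT, so that it had the fewer in every WT library. The difference was 1.12 (exact p = 0.00794, adjusted p = 0.0265). Per kilobase of exon the order did not reverse. Eci1 averaged 54.8 CPM in SMA and 60.2 CPM in WT on that scale, and Eci2 averaged less than Eci1 in both groups. Ehhadh over Hsd17b4 differed by 0.54 and Etfa over Etfb by 0.33 (exact p = 0.0238 and adjusted p = 0.0397 for each), with groups that overlapped. Acacb over Mlycd had log2 ratios of 1.18, 1.31, 0.77 and 1.37 in SMA and 0.67, 0.52, 1.02, 0.23 and 0.63 in WT. Its exact p was 0.0397 and its adjusted p 0.0567, and it passed without SMA 3 at an adjusted p of 0.0298. Cpt2 over Cpt1b (-0.15, exact p = 0.127) and Acads over Acadvl (0.16, exact p = 0.0635) did not pass, although Cpt2 over Cpt1b was -0.23 with an adjusted p of 0.0298 without SMA 3. Hadha over Hadhb, the pair that shares a start region, averaged 1.80 ± 0.17 in SMA and 1.72 ± 0.27 in WT on the log2 scale, a difference of 0.076 (exact p = 0.627).

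**Figure D4:**
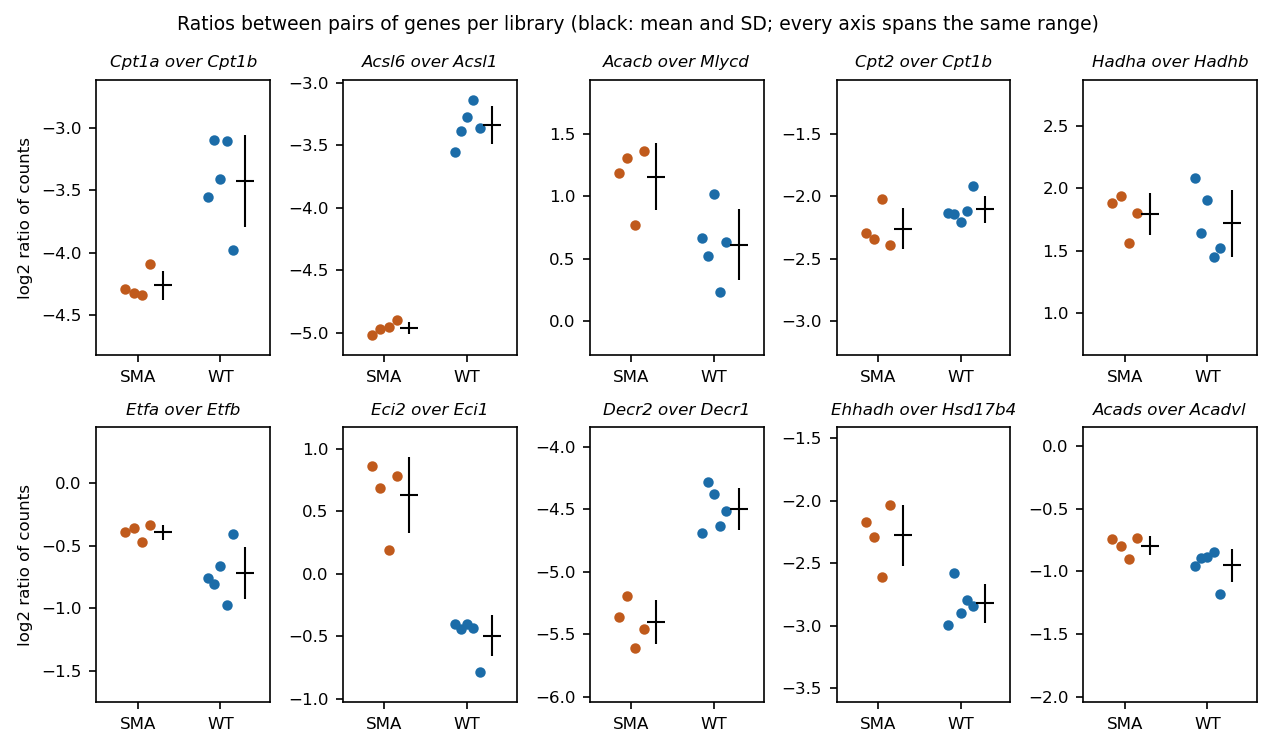
Log2 ratio of counts within each library (vertical axes, all spanning the same range) for 10 pairs of genes, with SMA libraries left and WT libraries right in each panel, and mean and SD in black. Points of the groups are wholly apart for Cpt1a over Cpt1b, Acsl6 over Acsl1, Eci2 over Eci1 and Decr2 over Decr1, and mixed for Hadha over Hadhb.

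Single libraries stood out across many of the 32 genes. SMA 3 was the highest SMA library for 16 of the 32 genes and SMA 4 the lowest for 22. In WT, library 5 was the highest for 23 of the 32 genes by CPM. Its median log2 difference from the other WT libraries was 0.26, yet its share of all counts, 0.508%, lay within the WT range. Its scaling factor was the smallest, at 0.828. Without WT 5 and SMA 3 together, 24 of the 32 genes rose and 3 fell, beside 4701 rises and 4721 falls among all genes.

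Further genes of fatty acid handling were counted in lists, to be read against the 27.7% of all genes tested that rose and the 27.2% that fell. Of 7 other genes that make or handle carnitine, 6 rose and 0 fell, but 3 rose without WT 2, without WT 3 or without SMA 2. The gene that did not pass was Slc22a4, a transporter of the cell membrane, at -0.35 ± 0.26. Aldh9a1, which oxidises an intermediate of carnitine synthesis, had 34.1, 32.6, 40.5 and 27.5 CPM in SMA against 10.8, 12.4, 10.5, 12.4 and 9.61 CPM in WT, and rose by 1.59 ± 0.12 (adjusted p = 7.83e-07). Bbox1, which completes that synthesis and is best known from liver and kidney, was near the floor, at 1.07 to 1.73 CPM in SMA and 0.142 to 0.489 CPM in WT, and rose by 2.14 ± 0.31 (adjusted p = 1.21e-04). Of 8 other acyl-CoA dehydrogenases, 4 rose and 2 fell, among them Acad12 at 0.93 ± 0.14 and Ivd, of leucine breakdown, at 0.91 ± 0.15. The number that fell was 1 without WT 1, WT 4, WT 5, SMA 1, SMA 2 or SMA 4, and 0 under total-count scaling, with sex as a term or with a replicate block. Of 9 other acyl-CoA synthetases, 8 were tested, of which 2 rose and 2 fell, with Acss2, the cytosolic acetate enzyme, at 0.50 ± 0.089 and Acsl5 at -0.82 ± 0.10. Under total-count scaling 1 of these synthetases fell.

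Peroxisomal genes outside the 32 were again divided. Of 20 listed, 18 were tested, and 10 rose and 6 fell. Pex11a, which takes part in peroxisome division, had 11.2, 12.2, 11.6 and 9.10 CPM in SMA against 4.40, 4.48, 4.04, 4.68 and 5.07 CPM in WT, and rose by 1.28 ± 0.11 (adjusted p = 2.51e-06). Pex19, a chaperone for peroxisomal membrane proteins, rose by 0.86 ± 0.079. Odd-numbered chains end in propionyl-CoA, and of 6 genes for its breakdown 0 rose, 3 fell and 3 did not pass. Those that fell were Mmab, at -1.52 ± 0.18, and Mmaa, at -0.50 ± 0.089, both of vitamin B12 metabolism, and Pcca, a propionyl-CoA carboxylase subunit named after its values were seen, at -0.60 ± 0.12. Of those that did not pass, the log2 fold change was -0.11 for Pccb, 0.26 for Mcee and 0.28 for Mut. In this list 1 gene rose without WT 5 and 2 rose under total-count scaling, where Mmaa lost its call (-0.26, adjusted p = 0.0771).

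Of 4 ketone body genes counted, 1 rose, 1 fell and 2 did not pass, close to the shares over all genes. Acat1, a mitochondrial thiolase, rose by 0.79 ± 0.077. Oxct1, which starts the use of ketones in muscle and was named after its values were seen, had 19.6, 21.4, 37.6 and 18.4 CPM in SMA against 101, 81.8, 98.4, 90.5 and 210 CPM in WT. It fell by 2.26 ± 0.31 (adjusted p = 7.29e-05), with WT 5 far above the other WT libraries. In this list 2 rose without SMA 2 or under total-count scaling, and 2 fell without WT 2, without SMA 3 or under upper-quartile scaling.

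In the list of AMP-activated kinase and Acaca, 2 of 8 rose and 4 fell, and 4 rose under total-count scaling. Prkag3, the kinase subunit of fast glycolytic muscle, had 50.6, 52.9, 53.2 and 41.7 CPM in SMA against 246, 190, 254, 212 and 312 CPM in WT, and fell by 2.29 ± 0.15 (adjusted p = 3.02e-07). Among 11 PPAR, ERR and PGC-1 regulators, 6 rose, 1 fell and 4 did not pass. Those that rose were Ppara, Ppard, Pparg, Rxra, Rxrb and Esrrb. Neither PGC-1 gene passed, with Ppargc1a at 0.29 ± 0.27 and Ppargc1b at 0.01 ± 0.22. Esrra, at 0.16 ± 0.098, and Esrrg, at 0.046 ± 0.16, did not pass either. The fall was in Rxrg, a partner receptor of PPARs, at -0.92 ± 0.079, and the lowest adjusted p of the list was that of Rxrb, at 0.82 ± 0.062. Ppara, the receptor best known for inducing fatty acid oxidation genes and named after its values were seen, had 27.9, 43.9, 28.5 and 33.4 CPM in SMA against 11.4, 13.7, 15.6, 10.4 and 21.7 CPM in WT, and rose by 1.20 ± 0.20 (adjusted p = 3.64e-04). Of 5 flavin cofactor genes, on which the dehydrogenases and electron-transfer proteins depend, 1 rose and 2 fell, with Rfk at -0.48 ± 0.11 and Flad1 at -0.47 ± 0.099. Flad1 lost its call under total-count scaling (-0.23, adjusted p = 0.0811), where 1 gene of this list fell.

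**Figure D5:**
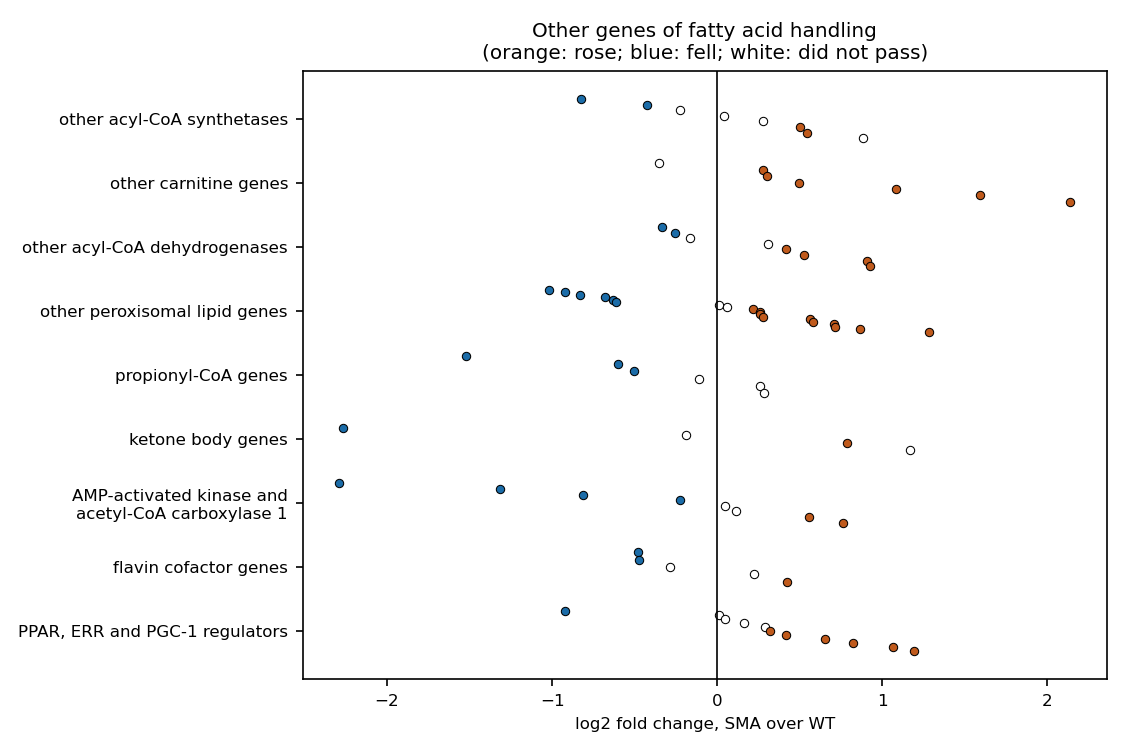
Log2 fold change, SMA over WT (horizontal axis), of the tested genes in 9 further lists of fatty acid handling (vertical axis; points spread vertically for legibility). Orange points rose, blue points fell and white points did not pass at an adjusted p of 0.05; the carnitine list has no blue point and the propionyl-CoA list no orange one.

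Markers of other cells and of fibre type were measured beside these results, and their part in them was not tested. Brown fat also burns fatty acids: its gene Ucp1 stood at 0.315, 0.320, 1.93 and 1.04 CPM in SMA against 16.9, 40.8, 28.4, 11.3 and 119 CPM in WT, and the 6 brown adipocyte markers summed to 16.03 to 23.2 CPM in SMA and 22.2 to 156 CPM in WT. These sums overlapped, and the list did not move one way: Ucp1 fell, Elovl3 rose, with 2.78 to 3.38 CPM in SMA and 0.815 to 1.85 CPM in WT, Cidea, Otop1 and Zic1 did not pass, and Lhx8 was too scarce to test. Adipocyte markers summed to 531 to 663 CPM in SMA and 301 to 630 CPM in WT, mostly Fabp4, which endothelium also expresses. Of 8 listed, 7 were tested, of which Fabp4 rose, Plin1 and Lep fell and 4 did not pass. Adipoq had 1.06 to 5.17 CPM in SMA and 2.29 to 13.3 CPM in WT. Cardiomyocyte markers summed to 88.4 to 117 CPM in SMA and 40.1 to 66.6 CPM in WT, of which Myh6, also found in some muscles, had 48.4 to 63.7 CPM in SMA and 21.7 to 41.4 CPM in WT. Of 5 listed, 3 were tested and all 3 rose, which were Myh6, Myl4 and Nppa. Nppa had 1.57 to 5.87 CPM in SMA and 0.0879 to 0.496 CPM in WT.

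The 9 slow and oxidative fibre markers summed to 2394 to 3234 CPM in SMA and 2553 to 4460 CPM in WT, and 1 rose and 2 fell. The 6 fast glycolytic markers summed to 31880 to 38540 CPM in SMA and 78970 to 111600 CPM in WT, and 0 rose and 5 fell. General mitochondrial genes were divided: of 11, 2 rose and 3 fell, their median log2 fold change was -0.012, and citrate synthase (Cs) had 1073, 1117, 1001 and 1047 CPM in SMA against 1041, 904, 1082, 913 and 1234 CPM in WT. Endothelial markers summed to 470 to 545 CPM in SMA and 482 to 615 CPM in WT, and 2 of 5 fell. Macrophage markers summed to 35.5 to 46.7 CPM in SMA and 68.9 to 89.1 CPM in WT, and 3 of 5 fell. Fibroblast markers summed to 653 to 939 CPM in SMA and 1155 to 2599 CPM in WT. Of these 4, 3 fell and Pdgfra rose, by 0.34 ± 0.11. Hepatocyte markers summed to 0.951 to 7.52 CPM in SMA and 0.176 to 0.922 CPM in WT, and the 2 of 4 red cell genes with a row to 596 to 948 CPM in SMA and 1205 to 2022 CPM in WT.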

How the data were processed

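Hindlimb muscle RNA (4 SMA, 5 WT libraries) entered a stranded mRNA preparation with paired reads of 75 bases, per the labels' protocols. The submitters' processing notes name HTSeq 0.9.1, DESeq2 1.16.1 and the build mm10, with no role stated; for aligner, annotation and strand setting nothing is stated. The deposited table of counts holds raw reads per gene. A second table by the authors holds a signal, each count divided by a size factor (0.734 to 1.23); multiplied back, 100% of its values came within 0.01 of the count, so the test on recovered reads is the test on the counts and calls the same 8712 genes. No replicates agreed within sampling noise (chi-square per degree of freedom 12 to 87.5).

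Counts were fitted in R 4.3.3 with edgeR 4.0.16: filterByExpr, trimmed mean of M values scaling, a quasi-likelihood fit on all 9 libraries with genotype group alone, Benjamini-Hochberg adjustment over 15873 genes. SE is the log2 fold change divided by the root of F. Count ratios used a pseudocount of 0.5. Exon lengths and positions are from GENCODE M21 on mm10; union lengths count every annotated exon, so levels per kilobase are approximate. Alternatives changed scaling, filter, tool (DESeq2 1.42.0, limma-voom 3.58.1), sex term, replicate block and libraries. The fit was tested on simulated data. Few genes were changed in them, unlike here, so they do not test the scaling. The genes and lists were chosen with earlier results of these data known. All 32 genes are named; of each further list, the 2 with the lowest adjusted p; other genes were named after their values were seen. Depth was 24917665 to 35087722 counts per library. A gene of the ketone body list is not reported here.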

Additional observations from a re-analysis of the deposited data

Results flagged for a closer look

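In 86 groups of values (32 genes, Smn1 and 10 ratios, each in SMA and in WT), 8 held a library whose gap to its nearest neighbour passed Dixon's 95% limit, where chance flags about 1 in 20 groups. SMA 3 was high for Slc22a5 (30.9 CPM), Acaa2 (492 CPM) and Acaa1a (64.4 CPM). WT 5 was high for Slc25a20 (76.3 CPM), Hadhb (157 CPM) and Acox3 (27.7 CPM), and low for the log2 ratio of Eci2 to Eci1 (-0.788). WT 4 was low for Smn1 (11.1 CPM). SMA 3 also stood apart on the second principal component, and WT 5 had the smallest scaling factor of the 9 libraries, at 0.828.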

How the results depend on the processing

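Over all alternatives, 20 to 27 of the 32 genes rose and 6620 to 9422 genes were called. Total-count scaling gave 2164 falls among all genes, 1 among the 32, and 3 rises and 0 falls among peroxisomal genes. Signs that changed, none past the threshold, were those of Hadh (-0.00113) and Acox3 (-0.0162) under upper-quartile scaling, Eci1 (0.117) and Decr2 (0.112) under total-count scaling, and Etfb under total counts (0.239), the stricter filter (0.00124), the sex term (0.0285) and left-out libraries (-0.135 to 0.0628). With upper-quartile scaling, no filter or the sex term, 1 electron-transfer gene rose. Without WT 5 and SMA 3 together, 1 auxiliary gene fell and 2 peroxisomal genes rose. Causes were not tested.

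Leaving out each library in turn gave 1 to 2 rises in electron transfer, 1 to 2 in the peroxisomal step and 0 to 1 falls among auxiliary enzymes. Log2 ratio differences then lay between -0.968 and -0.747 (Cpt1a/Cpt1b), -1.67 and -1.57 (Acsl6/Acsl1), 0.447 and 0.671 (Acacb/Mlycd), -0.234 and -0.108 (Cpt2/Cpt1b), 0.266 and 0.408 (Etfa/Etfb), 1.05 and 1.27 (Eci2/Eci1), -0.977 and -0.838 (Decr2/Decr1), and 0.463 and 0.654 (Ehhadh/Hsd17b4). Adjusted calls were lost in most of these fits. With a library left out there are fewer ways to divide the rest, so the smallest possible exact p is larger. A lost call alone thus does not show a smaller difference. Without SMA 3, Acsl6/Acsl1, Eci2/Eci1, Decr2/Decr1 and Ehhadh/Hsd17b4 held their calls. In that fit Acacb/Mlycd and Cpt2/Cpt1b gained one, and each of these ratios had an adjusted p of 0.0298.

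Same-numbered libraries did not deviate together: their correlations across genes were 0.118, -0.00555, -0.0482 and 0.0971, so the numbers are not read as pairs. With a replicate block, 7879 genes passed and 23 of the 32 rose, with 2 peroxisomal rises. Within-number ratio differences were -0.968 (Cpt1a/Cpt1b), -1.62 (Acsl6/Acsl1), 0.408 (Etfa/Etfb), 1.05 (Eci2/Eci1), -0.909 (Decr2/Decr1) and 0.538 (Ehhadh/Hsd17b4), with an adjusted exact p of 0.208 for each, where the smallest p of 4 pairs is 0.125.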
